A study of Mus musculus with 8 samples.

Results

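The interleukin 12 (IL-12) family and interferon gamma were examined in mouse lung neutrophils during pneumonia. The 8 genes were the cytokine subunits Il12a, Il12b, Il23a, Il27 and Ebi3, the receptor chains Il12rb1 and Il12rb2, and Ifng. Each gene was taken as the row of the deposited table whose RefSeq identifier belongs to its symbol, and 7 of the 8 had such a row among 24625 rows. No row was matched to Il12b, so no value is given for it. No measured gene of the 8 had more than 1 row.

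The study profiled neutrophils of wild type C57BL/6J mice, 6 to 12 weeks of age by the labels. Mice received either phosphate-buffered saline (PBS) or a suspension of Streptococcus pneumoniae (SP) by instillation into the trachea, directed to the left lung. The volume was 2.3 µl for each g that a mouse weighed, and neutrophils were collected after 24 h. Cells that carried Ly6G, a surface protein of mouse neutrophils, were pulled from lung digests with magnetic beads, and their RNA was hybridised to Affymetrix Mouse Gene 1.1 ST arrays, 4 for each group. The study describes each sample as coming from a mouse, and the labels do not number the mice. Values are log2 expression levels, so that 1 unit is a 2-fold difference. The arrays hold RNA of all cells bound to the beads, in which fewer cells of a type and less RNA per cell cannot be told apart.

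Cytokines of the IL-12 family are pairs of a 4-helix chain and a receptor-like chain, and chains are shared between cytokines. Il12a encodes p35 and Il12b encodes p40, which together form IL-12, and p40 with the product of Il23a forms IL-23. Il27 and Ebi3 encode the chains of IL-27, and Il12a with Ebi3 forms IL-35. Phagocytes and dendritic cells are the textbook source of IL-12, which binds Il12rb1 and Il12rb2 on natural killer (NK) and T cells, signals through Stat4 and induces interferon gamma. Interferon gamma acts back on phagocytes.

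Promoters of 5 of the 8 genes are in the RefSeq table of build GRCm38.p6, and those of Il23a, Il27 and Il12rb1 are not shown. The 250 bases before each annotated start were searched on both strands for the letters of an NF-κB site (GGGNNNNNCC), an interferon-gamma-activated sequence (GAS, TTCNNNGAA), an IRF-type repeat (GAAANNGAA) and an AP-1 site (TGANTCA). Il12a and Ebi3 are printed because their transcripts rose here and they encode partner chains, and Ifng because it is the target gene of the family. The Il12a promoter of the downstream start is chr3:68691174-68691423 on the plus strand, the Ebi3 promoter is chr17:55952373-55952622 on the plus strand, and the Ifng promoter is chr10:118440796-118441045 on the plus strand. Capitals mark the letters that matched, and each sequence runs 5′ to 3′ toward the start.
Il12a: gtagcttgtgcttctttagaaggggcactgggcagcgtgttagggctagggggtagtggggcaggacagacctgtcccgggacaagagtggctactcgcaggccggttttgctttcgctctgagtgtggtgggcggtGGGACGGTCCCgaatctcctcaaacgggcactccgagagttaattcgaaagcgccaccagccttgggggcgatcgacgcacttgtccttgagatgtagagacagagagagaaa
Ebi3: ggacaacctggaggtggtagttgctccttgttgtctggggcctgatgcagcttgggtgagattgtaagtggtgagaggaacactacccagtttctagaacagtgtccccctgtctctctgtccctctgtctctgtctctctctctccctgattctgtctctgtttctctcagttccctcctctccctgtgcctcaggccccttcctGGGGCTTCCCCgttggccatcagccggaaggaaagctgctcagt
Ifng: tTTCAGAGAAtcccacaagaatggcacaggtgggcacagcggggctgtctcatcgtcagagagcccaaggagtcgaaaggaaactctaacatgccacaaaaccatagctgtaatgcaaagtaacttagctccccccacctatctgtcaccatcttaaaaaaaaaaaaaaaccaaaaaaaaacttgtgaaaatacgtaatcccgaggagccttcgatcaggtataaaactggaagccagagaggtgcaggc
The Il12a and Ebi3 windows each held a pair of overlapping NF-κB matches, which began 113 and 112 bases before the start in Il12a and 44 and 43 bases before it in Ebi3. The Ifng window held a GAS match that began 249 bases before the start. A GAS match also lay 123 bases before the start of Il12rb2, and neither the upstream Il12a start nor the Il12b start had a match to any of the 4 motifs. Of the 32851 promoter windows in the table, 45.8% held the NF-κB letters, 7.02% the GAS letters, 7.13% the IRF-type letters and 6.75% the AP-1 letters. A match is a string of letters only, and no binding was measured in these data.

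SP pneumonia was accompanied by higher expression of all 4 measured cytokine subunits, 1 receptor chain and Ifng. By limma over all rows, with Benjamini-Hochberg adjustment and a threshold of 0.05, 6 of the 7 measured genes were higher in SP, where 21.5% of all rows were higher and 22.6% were lower. The same 6 genes passed with at least a 2-fold difference, as did 6.37% of all rows in that direction. In 6 genes every SP array lay above every PBS array, as in 27.2% of all rows. None of the 7 was lower. The median difference of the 7 genes was 2.07 log2 units, beside 0.10 over all rows.

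**Figure D1:**
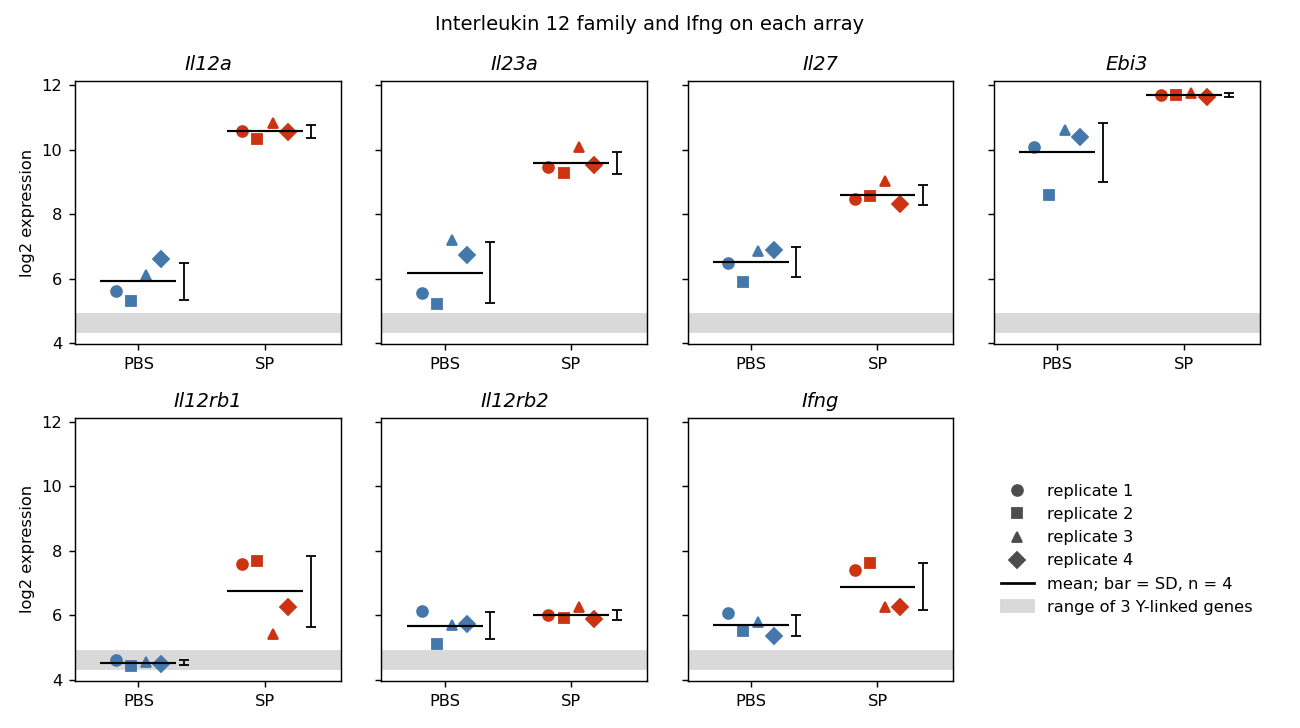
Expression (log2 units) of the 7 measured genes on each of the 8 arrays, with the mean (line) and SD (bar, n = 4) of the PBS and SP groups and, in grey, the range of 3 Y-linked genes (4.33 to 4.90). The groups are apart in all panels except that of Il12rb2, and the SP arrays of Il12rb1 and Ifng are spread more widely than their PBS arrays.

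Il12a, which encodes the p35 chain of IL-12 and IL-35, showed the largest difference of the 7. Its expression was 5.62, 5.30, 6.12 and 6.60 in PBS replicates 1 to 4 and 10.57, 10.33, 10.81 and 10.55 in SP replicates 1 to 4. The lowest SP array stood 3.73 log2 units above the highest PBS array, a gap wider than the range within either group. The difference was 4.66 (95% confidence interval 4.05 to 5.26, adjusted p = 1.01e-05), or 25.2-fold. Only 30 of the 24625 rows, Il12a included, had a difference that large or larger.

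Il23a encodes p19, the chain that makes IL-23 with p40. It measured 5.54, 5.22, 7.19 and 6.74 in the PBS arrays and 9.45, 9.26, 10.08 and 9.53 in the SP arrays. The groups did not overlap, although PBS replicates 3 and 4 lay more than 1 unit above PBS replicates 1 and 2. The difference was 3.41 (2.42 to 4.40, adjusted p = 0.000425), or 10.6-fold.

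Il27, the p28 chain of IL-27, was at 6.47, 5.88, 6.86 and 6.87 in PBS and at 8.47, 8.56, 9.01 and 8.31 in SP. All SP arrays lay above all PBS arrays, with a gap of 1.44. The rise was 2.07 (1.52 to 2.62, adjusted p = 0.00028), or 4.20-fold. Ebi3, the receptor-like chain of IL-27 and IL-35, was at 10.09, 8.58, 10.60 and 10.39 in PBS and at 11.69, 11.69, 11.76 and 11.63 in SP. The SP arrays were nearly level, with a range of 0.12, whereas the PBS arrays spanned 2.01 because PBS replicate 2 was low. Ebi3 rose by 1.78 (0.88 to 2.68, adjusted p = 0.00722), or 3.43-fold, and by 1.33 without PBS replicate 2 (adjusted p = 0.000186).

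**Figure D2:**
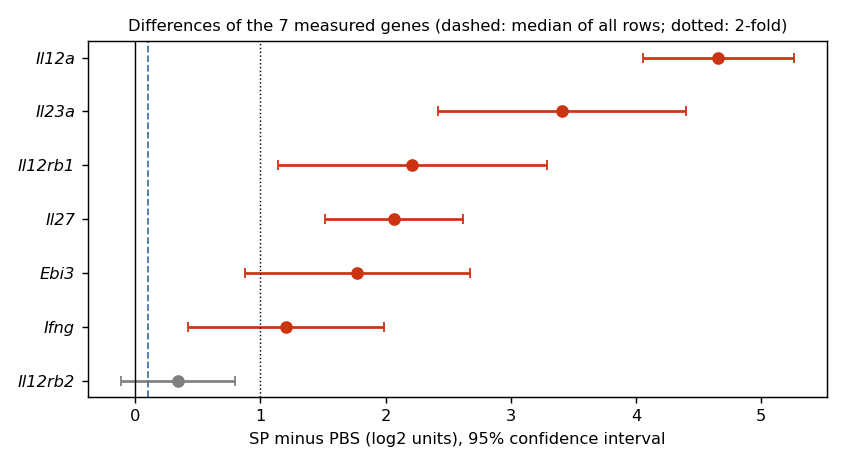
Difference between SP and PBS (log2 units) of each measured gene with its 95% confidence interval from limma (4 against 4 arrays), red where the adjusted p was at most 0.05. Il12a (4.66) is farthest right and the interval of Il12rb2 (-0.11 to 0.80) crosses 0.

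Ordered by difference, Il12a was followed by Il23a, Il12rb1, Il27, Ebi3, Ifng and Il12rb2. The confidence intervals of neighbours in this order overlapped. The interval of Il12a lay wholly above those of all genes after Il23a.

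Whether partner chains rose by the same amount was asked on the difference of the 2 chains on each array. Of 5 pairs planned, 3 could be tested, with 70 arrangements of the arrays, a smallest possible exact p of 0.0286 and adjustment over the 3 pairs. Il27 rose by 0.29 more than Ebi3, with an exact permutation p of 0.371. The intervals of the changes of Il27 (1.52 to 2.62) and Ebi3 (0.88 to 2.68) overlapped, which does not show that they rose alike. Without PBS replicate 2 the value was 0.52 (exact permutation p adjusted over the pairs = 0.0429).

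Il12a rose by 2.88 more than Ebi3, its partner in IL-35. Il12a minus Ebi3 was -4.47, -3.29, -4.48 and -3.79 in the PBS arrays and -1.11, -1.36, -0.94 and -1.09 in the SP arrays. All SP values were above all PBS values, which gave the smallest exact permutation p the design allows, 0.0286, and an adjusted p of 0.0857. A pair that alone reached this smallest p could not pass after adjustment over the 3 pairs. The adjusted exact p was 0.0429 without PBS replicate 2 (difference 3.12) and without SP replicate 3 (2.82). There another pair reached the smallest p as well, Il27 with Ebi3 and Il12rb1 with Il12rb2 respectively, which lowered the adjusted value. The pairs with Il12b, those of IL-12 and IL-23, could not be compared.

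Of the receptor chains of IL-12, Il12rb1 was called higher and Il12rb2 was not. Il12rb1, the chain shared by the receptors of IL-12 and IL-23, was at 4.62, 4.44, 4.55 and 4.48 in PBS and at 7.58, 7.69, 5.42 and 6.26 in SP. The PBS arrays were within the range of 3 Y-linked genes, 4.33 to 4.90, used as a measure of background signal, and every SP array was above it. That measure takes the mice to be female. The study bought female mice, raised colonies and compared sex-matched mice, without giving the sex of each sample. The SP arrays themselves spanned 2.27 units, with replicates 1 and 2 high and replicate 3 low. The difference was 2.21 (1.14 to 3.29, adjusted p = 0.00588), or 4.64-fold, although a PBS level at background leaves the size of the change uncertain.

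Il12rb2, the signalling chain that binds Stat4, was at 6.14, 5.12, 5.71 and 5.72 in PBS and at 6.02, 5.92, 6.24 and 5.89 in SP. The groups overlapped, since PBS replicate 1 was above 3 of the 4 SP arrays. The difference was 0.35 (-0.11 to 0.80) and did not pass the test (adjusted p = 0.175). With each array centred on its median the difference was 0.63 and passed (adjusted p = 0.0214), as it did after another quantile normalization (0.61, adjusted p = 0.0463). Il12rb1 rose by 1.87 more than Il12rb2 (exact permutation p = 0.0571, adjusted p = 0.0857, and 0.0429 without SP replicate 3, where the value was 2.38). The chains are thus not shown to differ in their change, and with Il12rb1 at background in PBS the value of 1.87 is not an exact size.

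None of the other 3 receptor chains of the family was called higher. Il6st, the gp130 chain that IL-27 and IL-6 receptors share, fell by 1.18 (adjusted p = 0.0049). Il23r, the specific chain of the IL-23 receptor, was at 5.20, 5.24, 4.82 and 4.90 in PBS and at 5.47, 5.39, 6.82 and 5.36 in SP, with replicate 3 alone far above the rest. Its difference was 0.72 (adjusted p = 0.0968) and without SP replicate 3 it was 0.36 (adjusted p = 0.0428). Il27ra, the specific chain of the IL-27 receptor, differed by 0.06 (adjusted p = 0.81).

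Ifng was at 6.08, 5.52, 5.78 and 5.34 in PBS and at 7.39, 7.63, 6.27 and 6.26 in SP. The groups were separated by 0.18, and the SP arrays formed a high pair, replicates 1 and 2, and a low pair, replicates 3 and 4. The difference was 1.21 (0.42 to 1.99, adjusted p = 0.022), or 2.31-fold. It did not pass without PBS replicate 2 (1.15, adjusted p = 0.0525), PBS replicate 4 (1.09, 0.0588) or SP replicate 1 (1.04, 0.0606), nor by a plain comparison of each row without moderation (adjusted p = 0.0534). The main comparison by limma, with moderation, did call Ifng higher. Why the plain comparison fell just past the threshold was not tested. The study likewise reported Ifng as significantly higher after adjustment, in its own one-way analysis of variance. It also reported more interferon gamma protein in lung neutrophils by flow cytometry, which these arrays do not measure.

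SP replicates 1 and 2 were the 2 highest SP arrays for Ifng and Il12rb1 and for no other of the 7 genes, an order seen in 17.3% of all rows. For Il12a, Il23a, Il27, Ebi3 and Il12rb2, SP replicate 3 was the highest SP array. In the PBS group, replicate 2 was lowest for 6 of the 7 genes, all but Ifng, an order seen in 36.3% of all rows.

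**Figure D3:**
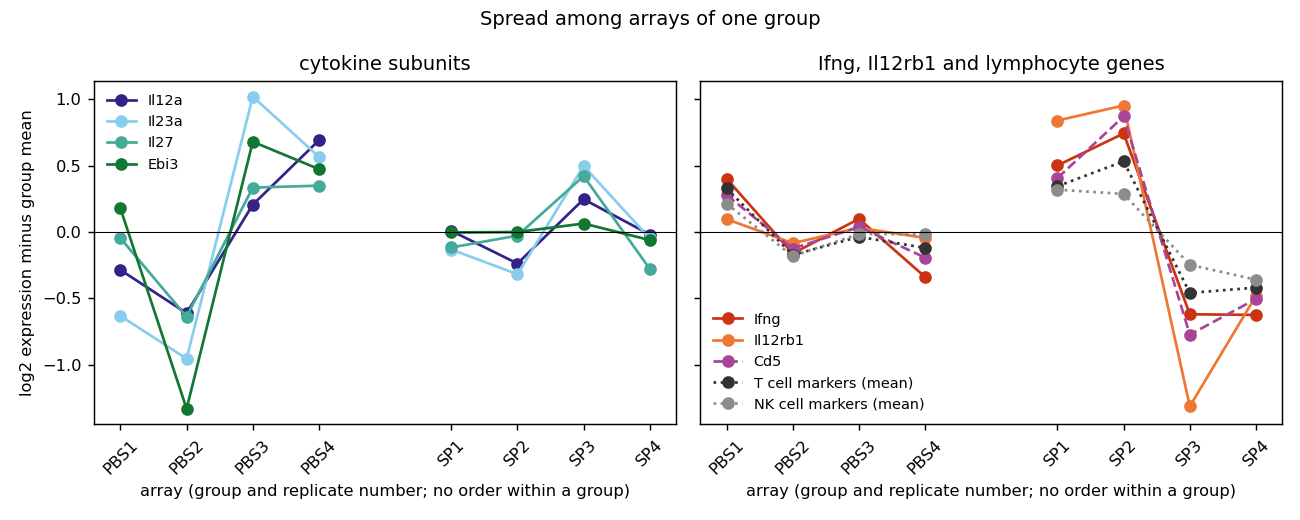
Deviation of each array from its group mean (log2 units) for the 4 cytokine subunits (left) and for Ifng, Il12rb1, Cd5 and the mean of the T and NK cell marker lists (right). Lines join arrays of a group for reading only. The right panel shows SP replicates 1 and 2 above SP replicates 3 and 4 for all 5 lines. Cd5 was chosen as the gene nearest to Ifng over these arrays, so its likeness to Ifng was fixed by that choice.

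Markers of T and NK cells moved with Ifng and Il12rb1 across the SP arrays. The mean of 12 T cell markers was 5.89, 5.39, 5.52 and 5.44 in PBS and 6.29, 6.47, 5.48 and 5.52 in SP, and 11 of the 12 had SP replicates 1 and 2 as their highest SP arrays. The mean of 11 NK cell markers was 5.65, 5.26, 5.42 and 5.42 in PBS and 6.13, 6.10, 5.56 and 5.45 in SP, and 8 of the 11 had that order. The order was not particular to these lists: 13 of 18 interferon gamma response genes, 6 of 8 B and plasma cell markers and 6 of 11 inducers of Il12 had it too.

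Between the groups, 2 of 12 T cell markers were higher in SP and none was lower, where 21.5% of all rows were higher and 22.6% lower. The 2 were Cd3d (0.69, adjusted p = 0.0209) and Cd5, a surface receptor of T cells (1.24, adjusted p = 0.0198). Without PBS replicate 1 or 2 for Cd3d, and without PBS replicate 4 or SP replicate 1 for Cd5, the adjusted p was between 0.0516 and 0.0565. The T cell markers with the highest mean over all arrays, Cd3e of the T cell receptor complex (0.29, adjusted p = 0.58) and Cd8b1 (0.81, adjusted p = 0.135), did not pass. Without SP replicate 3, Cd8b1 (1.14, adjusted p = 0.036) and Cd8a (0.93, adjusted p = 0.0367) were higher, as was Lck without SP replicate 4 (1.02, adjusted p = 0.0345). Of the NK cell markers, Klrk1 (1.14, adjusted p = 0.000526) and the granzyme gene Gzmb (1.47, adjusted p = 0.00107) were higher and 9 were not called, among them Nkg7 (0.61, adjusted p = 0.373). The summed level of the T cell markers ranged from 64.6 to 70.7 in PBS and from 65.8 to 77.7 in SP, and that of the NK cell markers from 57.8 to 62.2 and from 59.9 to 67.4. Of the T cell list, 1 gene was at the background range on all PBS arrays and none on all SP arrays, and of the NK list 3 and 1. The part of lymphocyte RNA in the values of Ifng and Il12rb1 was not tested.

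The genes whose values over the 8 arrays lay closest to those of each called gene were listed by the root mean square (RMS) distance of row-centred log2 values, among 19835 genes. For Ifng they were Cd5 (0.12), the unnamed transcript 9130221H12Rik (0.14) and the chemokine receptor gene Cxcr3 (0.15). Cxcr3, which T and NK cells use to follow Cxcl9 and Cxcl10, was at 5.69, 5.21, 5.42 and 5.34 in PBS and at 6.89, 7.13, 5.85 and 6.02 in SP. It thus had the same high and low pairs of SP arrays as Ifng.

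For Il12a the nearest genes were Socs1 (0.34), Slfn9 (0.36) and Slc22a4 (0.37), and for Il23a they were Rab20 (0.26), AA467197 (0.27) and Nos2 (0.28). Ptger2 (0.12), 4931440P22Rik (0.12) and Nt5c3 (0.13) were nearest to Il27. Rab32, Clec5a and Rtp4 (each 0.13) were nearest to Ebi3, and Tnni2 (0.17), Cd200r4 (0.19) and Myl4 (0.21) to Il12rb1. The difference between the groups enters these distances, which describe 8 arrays.

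Genes listed as inducers of Il12 transcription rose. All 11 genes of this list rose, 9 by 2-fold or more, with a median difference of 1.51. Of all rows, 21.5% were higher and 6.37% were higher by at least 2-fold. Batf3, counted among the 11, rose by 0.61 from PBS values within the background range of the Y-linked genes. Tlr9, the receptor for bacterial DNA, was at 7.62, 7.13, 6.72 and 6.72 in PBS and at 12.09, 11.93, 11.40 and 11.57 in SP, a rise of 4.70 (adjusted p = 5.44e-06). Cd40, whose ligand on T cells drives IL-12 release, rose by 2.65, and Irf5, a transcription factor of the Toll-like receptor pathway, by 2.32. Tlr2, which senses bacterial lipoproteins, rose by 1.74, Irf1 by 1.71 and Tlr4 by 1.51. Irf8, a partner of Irf1, rose by 1.25 (adjusted p = 0.0218), but its groups overlapped, with SP replicate 3 at 8.37 below PBS replicate 1 at 8.76. It did not pass without PBS replicate 3 or 4 or SP replicate 1 or 2 (adjusted p of 0.053 to 0.0592).

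Genes that restrain Il12 transcription rose as well. Of 8 genes, 6 rose, 5 by 2-fold or more, and none fell, with a median of 1.40. Il10, which encodes the cytokine IL-10, was at 5.19, 4.86, 5.36 and 5.65 in PBS and at 9.13, 8.09, 12.18 and 9.79 in SP. All SP arrays were above all PBS arrays, and SP replicate 3 was far above the other SP arrays. Il10 rose by 4.53 (adjusted p = 0.00175), Socs1, an inhibitor of JAK kinases, by 4.67, Tgfb1 by 1.42 and Il10rb by 1.37. The rises of Il10ra (1.51, adjusted p = 0.0345) and Bcl3 (0.81, adjusted p = 0.0256) did not pass when any of 5 and 3 single arrays, respectively, was left out (adjusted p of 0.0555 to 0.0834 and 0.0566 to 0.0702).

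The signalling genes downstream of the IL-12 family receptors were higher or not called. Of 8 JAK-STAT genes, 5 rose, 4 at least 2-fold, with a median of 1.09. Among them, besides Socs1, were Jak2 (1.74, adjusted p = 5.25e-05), Socs3 (1.24, adjusted p = 0.00358) and Tyk2 (0.94, adjusted p = 9.78e-05), and Jak2 and Tyk2 are the kinases bound to Il12rb2 and Il12rb1. Stat3, which IL-23 and IL-27 signal through, differed by 0.15 (adjusted p = 0.266).

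Stat4, the transcription factor through which IL-12 induces Ifng, was at 10.11, 9.11, 10.80 and 10.69 in PBS and at 8.64, 8.83, 9.92 and 8.72 in SP. The groups overlapped, with SP replicate 3 above PBS replicate 2, and the difference of -1.15 did not pass (adjusted p = 0.0549), although it did without PBS replicate 2 (-1.50, adjusted p = 0.0104) or SP replicate 3 (-1.45, adjusted p = 0.0203). It was called in 6 of 17 alternatives. Of the other transcription factors of Ifng, Runx3 rose by 0.96 (adjusted p = 0.00512). Tbx21, which encodes T-bet, was at 5.59, 5.21, 5.14 and 5.19 in PBS and at 6.45, 6.21, 5.18 and 5.24 in SP, so that only SP replicates 1 and 2 were above the PBS arrays, and its difference was 0.49 (adjusted p = 0.197). Eomes differed by 0.09 (adjusted p = 0.527).

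A list of 8 genes held cytokines and receptors that act with IL-12 on Ifng and, counted with them, the inhibitor Il18bp. Of these, 5 were higher and 1 was lower, with a median of 1.19. Il15ra, which presents IL-15, was at 7.32, 6.96, 7.14 and 7.31 in PBS and at 11.41, 11.41, 11.47 and 11.13 in SP, a rise of 4.17 (adjusted p = 4.37e-07). Il18bp, the soluble inhibitor of IL-18, rose by 2.71, Il2rg, the common gamma chain, by 1.78, and Il18 by 1.43. The 2 chains of the IL-18 receptor went opposite ways: Il18r1 fell by 1.67 (adjusted p = 1.55e-05) and Il18rap rose by 0.94 (adjusted p = 0.0335, and 0.0554 after another quantile normalization). Without PBS replicate 1 or 2 or SP replicate 1 or 3, the adjusted p of Il18rap was 0.05 to 0.0824 and past the threshold in none of them. Il15 (0.15) and Il2rb (0.94, adjusted p = 0.0621) did not pass, and Il2rb, the receptor chain of NK and T cells, was at 8.02, 8.09, 6.64 and 6.70 in the SP arrays, again with replicates 1 and 2 high. Il2rb passed without SP replicate 3 (1.18, adjusted p = 0.026) or 4 (1.16, adjusted p = 0.0327).

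**Figure D4:**
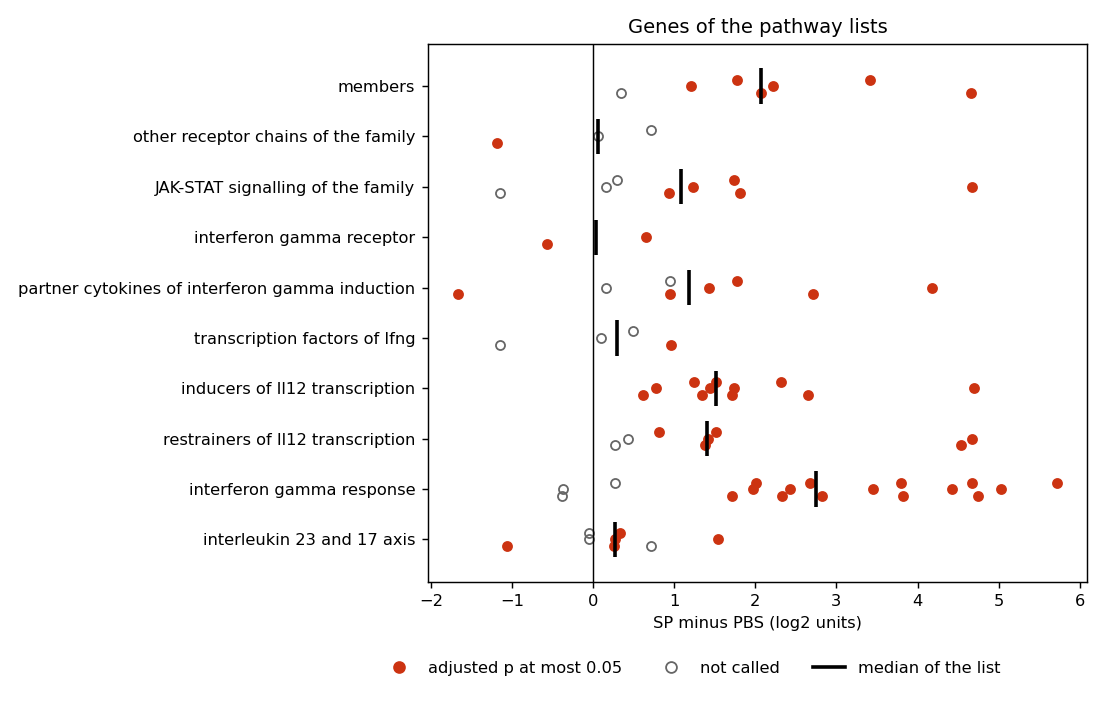
Difference between SP and PBS (log2 units) of each gene of the pathway lists, filled where the adjusted p was at most 0.05, with the median of each list as a bar. All 11 inducers of Il12 lie above 0, and the interferon gamma response list has the highest median, 2.75.

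Most genes of the interferon gamma response rose. Of 18 measured genes of this list, 15 rose, each by 2-fold or more, and none fell, with a median difference of 2.75. Cxcl9, a chemokine for T cells, rose by 5.73 (adjusted p = 0.000124), the immunoglobulin receptor gene Fcgr1 by 5.03 (adjusted p = 9.36e-07) and Cxcl10 by 4.75 (adjusted p = 0.000166). Gbp3, a guanylate-binding protein gene, rose by 4.42 and Cd274, which encodes PD-L1, by 3.82. Many of these genes also answer to type I interferons, and the share of either was not tested.

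The 3 genes of the list that were not called belong to the major histocompatibility complex class II programme and are named after their values were seen. Ciita, its master regulator, differed by 0.27 (adjusted p = 0.596), Cd74 by -0.38 (adjusted p = 0.307) and H2-Aa by -0.37 (adjusted p = 0.366). Cd74 was at 11.72, 11.64, 10.53 and 11.82 in the SP arrays, with replicate 3 low. Of the receptor for interferon gamma, Ifngr1 fell by 0.57 (adjusted p = 0.00958) and Ifngr2 rose by 0.65 (adjusted p = 0.00272). With arrays centred on their medians the Ifngr1 difference was -0.29 and did not pass (adjusted p = 0.114).

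The IL-23 and IL-17 axis lay partly at background, with 4 of its 8 genes no higher than the top of the Y-linked range on any PBS array. In SP this held for 2. In this list 4 genes were higher and 1 lower, and only Csf2, a growth factor gene (1.53, adjusted p = 0.000138), rose at least 2-fold. Il17a was at 4.77, 4.63, 4.85 and 4.76 in PBS and at 4.81, 5.11, 5.08 and 5.10 in SP. Il17f (0.26), Il17a (0.27) and Il22 (0.33) were called with differences near those of the Y-linked genes (0.12 to 0.19). Of the Y-linked genes, Kdm5d was itself called higher (0.19, adjusted p = 0.0497). The calls of Il17a and Il17f were lost after another quantile normalization and when any of 7 and 4 single arrays was left out (adjusted p of 0.0543 to 0.107 and 0.0659 to 0.093). Il22 kept its call after that normalization (0.20, adjusted p = 0.0345).

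The label of the cells was checked on marker lists. None of 11 neutrophil markers was higher and 3 were lower, with a median of -0.30, and the mean of the list lay between 12.2 and 12.5 in PBS and between 11.7 and 12.8 in SP. Lcn2 was at 13.21 to 13.40 in PBS and 13.44 to 13.65 in SP, and Retnlg at 13.32 to 13.39 and 12.56 to 13.35. The 3 lower ones, Retnlg, Mmp8 and Mmp9, lost their call when any of several single arrays was left out (adjusted p of 0.0544 to 0.105). Without SP replicate 3, by contrast, 8 of the 11 were called, S100a8 (-0.28, adjusted p = 0.0193), S100a9 (-0.46, adjusted p = 0.00967) and Ngp (-1.23, adjusted p = 0.0228) among them. Array weights gave 9 calls and another quantile normalization 7. No row was matched to Ly6g, the target of the beads, although the study reported its mRNA as highly expressed in every sample. SP replicate 3 stood apart in granule genes, with Ngp at 13.34, Camp at 10.94 and Ltf at 12.10, the highest of all 8 arrays. All 6 calls of the 7 genes were made without this array too.

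Markers of other cells that make IL-12 were also measured. Of 12 dendritic cell markers, 3 were higher and 3 lower, beside 21.5% and 22.6% of all rows. Their median was -0.11, and Flt3 and Cd207 were near the background range in both groups. Ccr7 differed by -0.72 (adjusted p = 0.0577, and 0.00764 and 0.0378 without PBS replicate 2 or SP replicate 4), and Fscn1 rose by 1.09 (adjusted p = 0.0145). The summed level of that list was 67.2 to 72.6 in PBS and 65.9 to 68.4 in SP. Of 11 monocyte and macrophage markers, 5 were higher and 1 lower, with a median of 0.73 and summed levels of 87.7 to 97.2 and 87.7 to 103.3. Csf1r, the receptor of a macrophage growth factor, differed by 0.73 (adjusted p = 0.0547) and Adgre1, which encodes F4/80, by 1.27 (adjusted p = 0.0223). Without PBS replicate 3 or SP replicate 3 Csf1r passed (adjusted p of 0.0494 and 0.0379), and without SP replicate 1 or 2 Adgre1 did not (0.062 and 0.0536). The SP array with the lowest sum of this list was replicate 3.

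Of the remaining lists, 2 of 9 alveolar macrophage markers were higher and 4 lower, 0 of 8 B and plasma cell markers were higher and 5 lower, and 1 of 8 innate lymphoid and gamma delta T cell markers was higher and 5 lower. Medians were -0.86, -1.55 and -0.63. Chil3 (0.97, adjusted p = 0.0216) and Car4 (-1.25, adjusted p = 0.00797) had the highest mean of the alveolar macrophage markers, and Chil3 did not pass without PBS replicate 3 or 4 (0.052 and 0.0501). Those of the B and plasma cell list were Xbp1 (0.05, adjusted p = 0.729) and Cd79b (-1.63, adjusted p = 0.00743), and those of the innate lymphoid list Il7r (2.77, adjusted p = 0.000874) and Areg (-1.69, adjusted p = 0.00145). The part of other cells in the values of the cytokine genes was not tested.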

How the data were processed

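RNA of 8 samples of mouse lung neutrophils, 4 PBS and 4 SP, was measured on 1 array each, and groups and replicate numbers were taken from the sample titles. Per the methods, the authors processed the signals by robust multi-array averaging with quantile normalization and median polish, so the deposited values are on a log2 scale. The submitters' processing notes name Affymetrix Expression Console, RMA and Partek. Array medians were 6.06 to 6.20 in PBS and 5.78 to 5.91 in SP, so small differences depend on the scaling. No pair of arrays was identical, and 4 arrays a group limit the precision. Neutrophil purity was stated for pneumonia samples only, where the study judged it high on stained cell preparations. By its account the few other cells mostly looked like alveolar macrophages, and rarely like eosinophils.

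Symbols were assigned through RefSeq identifiers (mouse GRCm38.p6 table), which named 19915 of 24625 rows. No coordinates are attached to the values. Of several rows of a symbol, that with the highest mean over all arrays was used. Rows were compared with limma 3.58.1 (R 4.3.3), lmFit and eBayes, by two-sided tests whose p-values were adjusted over all rows (Benjamini-Hochberg), with thresholds of 0.05 and 1 log2 unit. Pairs of partner chains were compared by a two-sided exact permutation test. The functions were tested on simulated data. The 8 genes and all lists were chosen with earlier results of these data known, so no list was tested as a set. Every count of called genes in a list stands beside 21.5% of all rows higher and 22.6% lower. Some genes of the lists are counted, but their results are not reported here.

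Named genes were the 8, at most 6 of each pathway list (largest called differences, then the highest not called), the 2 highest of each marker list with those near background, and the 3 nearest genes of each called gene. Genes outside this rule were named after their values were seen: those the single-array checks found, Stat4, Il15, Il2rb, Ciita, Cd74, H2-Aa, Irf8, Batf3, Kdm5d, Cd3d, Cd8a, Lck, Klrk1, S100a8, S100a9, Mmp8, Mmp9, Ngp, Camp and Ltf. Alternatives were a plain t-test of each row with Benjamini-Hochberg adjustment (the same test as a one-way analysis of variance of the groups, without moderation), array weights, a block for the replicate number, a robust prior with trend, median centring, another quantile normalization, no dim rows, 1 row per symbol, treat against 1 log2 unit, and leaving out each array. Protein sequences were not analysed here. Python 3.11.15 was used for the rest.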

Additional observations from a re-analysis of the deposited data

Results flagged for a closer look

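In each group of 4 arrays, the array farthest from the others was compared with Dixon's critical value for a group of 4 for the 8 genes and the pathway lists. Of 166 groups examined, 16 (9.64%) held such an array, where chance gives about 1 in 20. The 166 are more than the measured genes of these lists give, so the share is not that of these genes alone. The groups share the same 8 arrays, so their flags are not independent, and the excess was not tested. None of the 7 measured genes was among the groups flagged.

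SP replicate 3 was far above the other SP arrays for Il23r (6.82), Stat4 (9.92), Socs3 (12.46) and Nfkb1 (11.94), and far below them for the class II genes Cd74 (10.53) and H2-Aa (10.29). PBS replicate 2 was far below the other PBS arrays for Socs1 (5.51), Irf5 (8.09), Rel (9.86) and Cxcl10 (6.96). SP replicate 4 was low for Il18bp (11.42) and Gbp2 (13.11) and high for Il1r1 (9.28). SP replicate 1 was high for Batf3 (5.41) and low for Il17a (4.81), and PBS replicate 1 was high for Tbx21 (5.59).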

How the results depend on the processing

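Il12a, Il23a and Il27 kept their direction and call under all 17 alternatives, with differences of 4.35 to 4.94, 2.98 to 3.75 and 1.80 to 2.35. None of the 7 measured genes changed sign under any alternative that gave a value. Against a difference of 1 log2 unit (treat), Ebi3 (1.78, adjusted p = 0.403), Il12rb1 (2.21, adjusted p = 0.184) and Ifng (1.21, adjusted p = 1) were no longer called, which left 3 of 6 calls, and Ifng (1.21) was lost by the plain t-test. Il12rb2 was called with centred arrays (0.63) and after another quantile normalization (0.61). Leaving out 1 array gave 0.96 to 1.41 for Ifng, 0.17 to 0.52 for Il27 minus Ebi3, 2.72 to 3.12 for Il12a minus Ebi3 and 1.52 to 2.38 for Il12rb1 minus Il12rb2. Leaving out dim rows removed Il12rb2 and Il12rb1, so no value exists there.

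Over all rows, 10860 were called, 18255 with centred arrays and 1572 by treat. Rows higher at least 2-fold numbered 1568, 2375 with centred arrays and 660 by treat, and rows lower at least 2-fold 2773, 1896 with centred arrays and 912 by treat. Centring moved the median of all rows from 0.10 to 0.38 and the share of higher among called rows from 48.9% to 77.9%, so that member differences under it are relative to that shift. Of 322 list medians recomputed, 303 moved by less than the spread between replicates, and of 322 list counts 254 stayed within 1.5 times. Calls ranged from 0 to 9 for the neutrophil markers, 0 to 6 for the T cell markers, 0 to 7 for the NK cell markers, 0 to 3 for the transcription factors of Ifng and 0 to 2 for the other receptor chains.

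Replicate numbers gave no clear sign of pairing, and the labels do not say whether same-numbered arrays were handled together. Same-numbered arrays correlated at -0.27 to 0.35 in their deviations, 1 of 4 above 0.1, and 2 of 8 arrays were closest to their own number. With the replicate block 9842 rows were called, Il12a stayed at 4.66 (adjusted p = 0.000189) and Ifng at 1.21 (adjusted p = 0.0193), and none of the 7 measured genes changed its call. Among other named genes, Stat4 (adjusted p = 0.0268), Lck (0.0455) and Ccr7 (0.0483) were called with the block, and Il17a (0.0822) and Chil3 (0.0662) were not. For the pairs of chains, the block allowed no exact p below 0.125.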
